A study of Mus musculus with 20 samples.

Results

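The Ube2 genes encode the E2 enzymes of the ubiquitin system. Probes whose gene name on the array starts with Ube2 were collected, control probes aside, and the brightest probe of a gene, by the mean over all 20 arrays, stood for that gene. This gave 31 genes, from 81 probes, of 27670 genes on the array. All 31 were well above background on all 20 arrays, none was saturated, and all 31 passed the filter that left 25289 genes for testing. The array's Ube2q and Ube2d2 are now called Ube2q1 and Ube2d2a, and the array's names are kept here. Ube2k, listed on the array as Hip2, has another name there and was not among them.

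Ubiquitin reaches its targets through a relay. An E1 enzyme activates it, an E2 carries it as a thioester, and an E3 ligase selects the protein that receives it, so the E2 largely sets which kind of chain is built. K48 chains (named for the lysine of ubiquitin that links them) mark proteins for the proteasome, K63 chains mostly serve signalling and repair, and related E2s carry NEDD8 or ISG15 in place of ubiquitin. In skeletal muscle this system breaks down myofibrillar proteins when the muscle is unloaded, with the ligases atrogin-1 (Fbxo32) and MuRF1 (Trim63) as its best known members.

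RNA came from the soleus, a slow postural muscle, and the gastrocnemius, a mostly fast muscle of the calf, of 10 male ICR mice aged 6 months. One set of mice moved freely for 24 h (control), and the other was held in hind-limb suspension (HLS) for 24 h, tilted head-down by 45°, so that the hind limbs bore no weight. Each of the 4 groups, soleus control, soleus HLS, gastrocnemius control and gastrocnemius HLS, held 5 arrays, 1 per mouse and muscle, and the same mice gave both muscles. No transgene or deletion is named in the labels, and the study's question was the effect of a short unloading on both muscles.

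Levels are log2 intensity against each array's 75th percentile, so that 0 is the brightness of the spot at that percentile and a difference of 1 is a doubling. Muscle markers such as Acta1 were bright in every group (lowest array 8.45), and the slow troponin gene Tnni1 had a median of 6.98 in soleus control against 3.04 in gastrocnemius control. Soleus HLS replicate 1 stood apart: its mean over 7 slow-fibre markers was 5.81, the lowest of its group, and its mean over 8 fast-fibre markers was 8.63, the highest. E1A spike-in RNA, added before labelling, lay 0.26 higher after HLS in soleus, changed by -0.78 after HLS in gastrocnemius and by -1.05 between control soleus and control gastrocnemius, so scaling to the spike-ins would shift every difference by the opposite amount. Slide and scan day followed the groups in part, and no slide held both muscles. Whole tissue was used, so fewer cells of a type and less RNA per cell cannot be told apart.

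The promoters of 4 members are shown because these genes carry the results: Ube2n fell and Ube2g1 rose in soleus after HLS, and Ube2t and Ube2c had the lowest p of all members between the muscles in controls, in opposite directions on this scale. Each run is the 250 bases before the annotated start, from RefSeq (GRCm38.p6), 5′ to 3′ on the gene's strand. Capitals mark matches, on either strand, to 7 motifs: the GC box GGGCGG, the CCAAT box CCAAT, the ETS motif CCGGAAG, the E-box CACGTG, the CRE TGACGTCA, the FoxO motif TGTTTAC and the glucocorticoid half-site AGAACA.
Ube2n, chr10:95514912-95515161, + strand: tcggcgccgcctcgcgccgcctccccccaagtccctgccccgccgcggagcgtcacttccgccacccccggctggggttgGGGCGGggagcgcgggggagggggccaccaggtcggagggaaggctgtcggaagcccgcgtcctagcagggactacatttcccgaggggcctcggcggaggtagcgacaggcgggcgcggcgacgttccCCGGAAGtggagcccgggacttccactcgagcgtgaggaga
Ube2g1, chr11:72607011-72607260, + strand: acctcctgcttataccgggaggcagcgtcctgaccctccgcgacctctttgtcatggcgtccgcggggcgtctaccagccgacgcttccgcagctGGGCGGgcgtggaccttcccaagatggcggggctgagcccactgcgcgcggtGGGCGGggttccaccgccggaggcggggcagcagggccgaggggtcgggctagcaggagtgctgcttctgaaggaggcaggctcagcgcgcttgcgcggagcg
Ube2c, chr2:164769679-164769928, + strand: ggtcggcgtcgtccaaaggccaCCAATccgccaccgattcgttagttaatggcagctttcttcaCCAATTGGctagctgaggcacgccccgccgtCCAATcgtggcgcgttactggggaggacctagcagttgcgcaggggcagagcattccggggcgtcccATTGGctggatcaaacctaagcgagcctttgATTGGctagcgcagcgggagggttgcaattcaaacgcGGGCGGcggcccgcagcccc
Ube2t, chr1:134962315-134962564, + strand: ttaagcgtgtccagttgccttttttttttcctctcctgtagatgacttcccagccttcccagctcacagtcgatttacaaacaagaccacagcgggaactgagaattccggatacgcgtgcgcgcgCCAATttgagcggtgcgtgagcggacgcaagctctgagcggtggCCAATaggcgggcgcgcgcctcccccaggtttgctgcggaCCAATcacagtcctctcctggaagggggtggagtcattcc

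A promoter window was listed for 24 of the 31 members. A GC box occurred in 16 of these 24 (66.7%), against 33% of 27018 genes with 1 window each. The ETS motif occurred in 5 members (20.8%, against 7.07% of all genes), and the CCAAT box in 7 (29.2%, against 34.5%). Ube2n held 1 GC box and 1 ETS motif, Ube2g1 held 2 GC boxes, Ube2t held 3 CCAAT boxes, and Ube2c held 6, of which one on each strand overlap. The FoxO motif was found in 0 of the 24 windows (3.06% of all genes) and the glucocorticoid half-site in 1 (16.1%). The E-box occurred in 2 windows (6.04% of all genes) and the CRE in 1 (1.6%). These are matches of letters in 1 window per gene, and no binding was measured.

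After 24 h of suspension the soleus read lower for Ube2n, Ube2f and Ube2g2 and higher for Ube2g1, on their brightest probes. The gastrocnemius read lower for Ube2n and Ube2f, a direction that spike-in scaling turned there. With slide in the fit 0 members passed in either muscle, and a fit of the 2 soleus groups alone kept only Ube2g2. In soleus 4 of 31 Ube2 genes passed an adjusted p of 0.05 (limma, Benjamini-Hochberg over 25289 genes), 1 higher and 3 lower, which is 12.9% against 5.93% of all genes (2.39% higher and 3.54% lower). In gastrocnemius 2 of 31 passed, both lower, which is 6.45% against 3.17% of all genes (1.16% higher and 2.01% lower). The median difference was -0.0043 over the members and 0.0529 over all genes in soleus, and -0.059 and 0.0107 in gastrocnemius. Control and HLS values did not overlap for 5 members in soleus (5.05% of all genes) and for 3 in gastrocnemius (7.45%). The precision was similar for most members: the median 95% interval reached 0.26 on either side of the estimate.

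**Figure D1:**
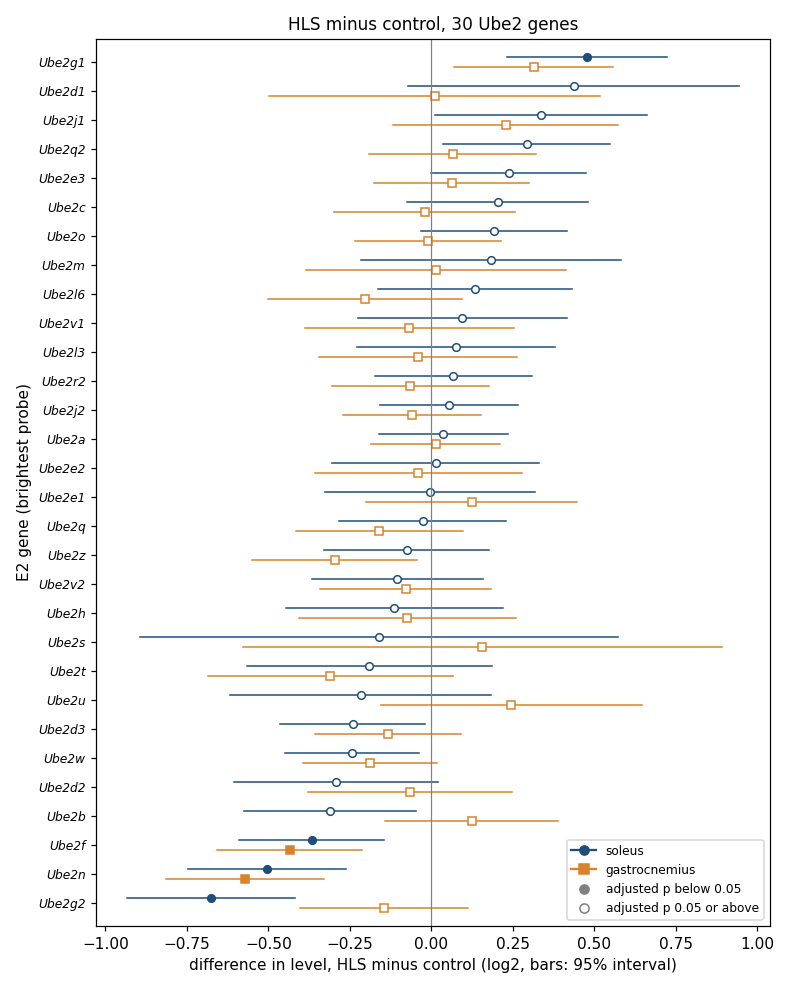
Difference in level between HLS and control (log2) for 30 Ube2 genes, in soleus (circles) and gastrocnemius (squares), with 95% intervals from limma; filled symbols passed an adjusted p of 0.05. Ube2n and Ube2f lie left of 0 with filled symbols in both muscles (spike-in scaling turns both in gastrocnemius), Ube2g2 and Ube2g1 are filled in soleus, and most other intervals cross 0.

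Ube2n encodes the E2 that builds K63 chains together with the inactive partners Ube2v1 and Ube2v2. Its level was 0.42, 0.58, 0.29, 0.65 and 0.25 in the 5 soleus controls and 0.14, -0.01, -0.20, -0.19 and -0.07 after HLS. In gastrocnemius it was 0.33, 0.93, 0.63, 0.55 and 0.51 in controls and 0.18, 0.16, -0.10, -0.14 and -0.02 after HLS. Every HLS array lay below every control array in both muscles. Ube2n fell by 0.50 ± 0.12 (SE) in soleus (1.42-fold, adjusted p = 0.011) and by 0.57 ± 0.12 in gastrocnemius (1.49-fold, adjusted p = 0.0076; 0.21 with spike-in scaling, which turns the direction there). Both calls held whichever array was left out, with adjusted p up to 0.037 and 0.029. A second Ube2n probe, fitted on its own, gave -0.45 (adjusted p = 0.016) and -0.46 (adjusted p = 0.021), and the other was at background on all arrays. The partners gave smaller values: Ube2v1 differed by 0.09 (adjusted p = 0.82) and -0.07 (adjusted p = 0.91), and Ube2v2 by -0.10 (adjusted p = 0.74) and -0.08 (adjusted p = 0.86), in soleus and gastrocnemius.

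Ube2f, an E2 of NEDD8 that serves the cullin Cul5, was the other member lower in both muscles. Soleus controls stood at 1.58, 1.64, 1.62, 1.47 and 1.64, and soleus HLS at 0.82, 1.46, 1.31, 1.34 and 1.18. Gastrocnemius controls stood at 1.78, 1.96, 1.91, 1.80 and 1.68, and gastrocnemius HLS at 1.38, 1.30, 1.31, 1.39 and 1.59. The groups did not overlap in either muscle, by narrow gaps. Ube2f fell by 0.37 ± 0.11 in soleus (1.29-fold, adjusted p = 0.045) and by 0.43 ± 0.11 in gastrocnemius (1.35-fold, adjusted p = 0.028; 0.34 with spike-in scaling, the opposite direction). The soleus call was lost without any one of the 5 controls or of HLS replicates 1, 3 and 5, with values of -0.27 to -0.40 where it was lost and the smallest without HLS replicate 1 (adjusted p = 0.11). In gastrocnemius it was lost without control 2, 3 or 4 or HLS 1, 2, 3 or 4, at -0.40 to -0.44 (adjusted p up to 0.084). Of 2 other Ube2f probes, one gave -0.16 and -0.13 and the other -0.49 and -0.52 in soleus and gastrocnemius, none below an adjusted p of 0.05.

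**Figure D2:**
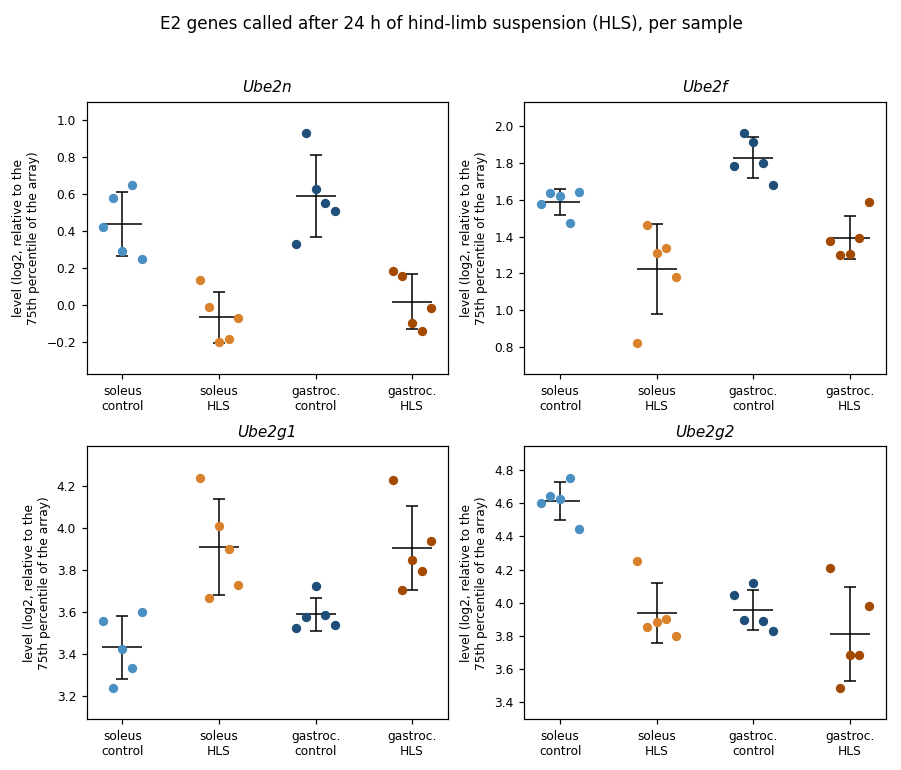
Level of Ube2n, Ube2f, Ube2g1 and Ube2g2 on each array (log2, against the array's 75th percentile) in the 4 groups; points are arrays, and bars the mean ± SD of 5. Ube2n and Ube2f are lower in both HLS groups on this scale (spike-in scaling turns both in gastrocnemius), and Ube2g1 is higher. Ube2g2 in soleus moves from 4.61 in controls to 3.94 after HLS.

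Ube2g1 and Ube2g2 both build K48 chains, Ube2g1 mainly with cullin ligases and Ube2g2 with ligases of the endoplasmic reticulum that clear misfolded proteins. They moved in opposite directions in soleus. Ube2g2 stood at 4.60, 4.64, 4.63, 4.75 and 4.44 in soleus controls and at 4.25, 3.86, 3.88, 3.90 and 3.80 after HLS. The ranges were separate, with HLS replicate 1 nearest the controls. Ube2g2 fell by 0.68 ± 0.12 (1.60-fold, adjusted p = 0.0016), and by more without that replicate (-0.76). In gastrocnemius it went from 4.04, 3.90, 4.12, 3.89 and 3.83 to 4.21, 3.49, 3.69, 3.69 and 3.98, overlapping ranges with a difference of -0.14 (adjusted p = 0.68). The difference between the muscles in this response was -0.53 ± 0.18, with an adjusted p of 0.62, so a difference in response was not established. Its other probes gave -0.40 (adjusted p = 0.10) and -0.57 (adjusted p = 0.11) in soleus.

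Ube2g1 stood at 3.56, 3.24, 3.42, 3.34 and 3.60 in soleus controls and at 4.24, 3.67, 4.01, 3.90 and 3.73 after HLS. All HLS arrays exceeded all controls. Ube2g1 rose by 0.48 ± 0.12 (1.39-fold, adjusted p = 0.017), and by 0.40 without HLS replicate 1 (adjusted p = 0.046). Spike-in scaling shifts the soleus difference of every gene by about -0.26. It left 0.22 for Ube2g1 and ended this call (adjusted p = 0.29). The soleus calls of Ube2n, Ube2f and Ube2g2 stayed, but the shift moves lower genes further from 0, so this is no separate check of them. In gastrocnemius the controls were 3.52, 3.57, 3.72, 3.59 and 3.54 and the HLS arrays 4.23, 3.71, 3.85, 3.80 and 3.94, a difference of 0.31 ± 0.12 that did not pass (adjusted p = 0.18) and that moved to 1.09 with spike-in scaling. A second Ube2g1 probe gave 0.22 and 0.18 in soleus and gastrocnemius (adjusted p = 0.34 and 0.54), and averaging both probes ended the soleus call (0.35, adjusted p = 0.060).

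Slide and scan day bear on all of these calls. Soleus slide 5, with 1 control and 3 HLS arrays, gave -0.27 for Ube2n, -0.44 for Ube2f, -0.44 for Ube2g2 and 0.37 for Ube2g1. Gastrocnemius slide 2, with 3 controls and 1 HLS array, gave -0.38 for Ube2n and -0.42 for Ube2f. On scan day 2 the soleus differences, from 5 controls and 3 HLS arrays, were -0.46 for Ube2n, -0.39 for Ube2f, -0.62 for Ube2g2 and 0.54 for Ube2g1, and on scan day 1 the gastrocnemius differences, from 5 controls and 1 HLS array, were -0.40 for Ube2n and -0.45 for Ube2f. The directions were the same in these batches, but their arrays are those of the main fit, so this is no separate check. Slide 5 and scan day 2 share their soleus HLS arrays, and the gastrocnemius values rest on the same 1 HLS array. Without soleus HLS replicate 1, slide 5 gave -0.35 for Ube2n, -0.25 for Ube2f, -0.57 for Ube2g2 and 0.24 for Ube2g1. Scan day 2 then gave -0.54, -0.20, -0.75 and 0.41 for the same genes. With slide in the fit 0 members passed in either muscle, as did only 23 genes in soleus and 10 in gastrocnemius of all 25289. A fit of the 2 soleus groups alone kept Ube2g2 (adjusted p = 0.011) and lost Ube2n (adjusted p = 0.051), Ube2g1 (adjusted p = 0.097) and Ube2f (adjusted p = 0.20), with the same differences. With scan day in the fit Ube2g2 (-0.62, adjusted p = 0.0098) and Ube2g1 (0.54, adjusted p = 0.022) kept their soleus calls, and no gastrocnemius call remained (Ube2n -0.40, adjusted p = 0.67). Markers of smooth muscle also differed with HLS: their mean over 4 genes was 3.46 to 4.62 in soleus controls and 2.84 to 3.62 in soleus HLS, and 3.33 to 4.07 and 2.82 to 3.21 in gastrocnemius. Of the 4 genes 1 passed in soleus (Tagln, which fell by 1.20) and 0 in gastrocnemius, and all 4 were detected. Of 5 endothelial markers 0 passed in soleus and 1 in gastrocnemius (Kdr, which fell by 1.12; -0.88 and adjusted p = 0.055 in soleus), with a mean level of 0.78 to 1.18 in gastrocnemius controls and 0.61 to 1.09 after HLS. None of 4 adipocyte markers passed, and all 4 differences were negative in both muscles (median -0.76 in soleus and -0.20 in gastrocnemius). None of 7 slow-fibre markers passed, and all 7 were negative in soleus (median -0.56, with replicate 1 lowest). The part of these markers in the E2 values was not tested.

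The remaining E2s of the K48 and endoplasmic reticulum group did not pass. Ube2j1, a membrane-anchored E2 of the endoplasmic reticulum, stood at 3.27, 3.19, 2.64, 3.14 and 2.87 in soleus controls and at 3.64, 2.94, 3.38, 3.28 and 3.54 after HLS. Its difference was 0.34 (adjusted p = 0.26) in soleus and 0.23 (adjusted p = 0.60) in gastrocnemius, where control replicate 4 had no usable spot. The soleus ranges overlapped. Ube2j2, its relative, and Ube2r2, a Cdc34-type E2 of SCF ligases, differed by -0.06 to 0.07 over both muscles.

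Among the 9 general E2s that start chains, 0 passed in either muscle. The Ube2d enzymes work with many RING ligases. Ube2d1 had the widest spread of them: -1.12, -1.77, -1.18, -1.69 and -0.97 in soleus controls against -0.03, -0.99, -0.94, -0.93 and -1.66 after HLS, a difference of 0.44 (adjusted p = 0.38) that came to 0.22 without HLS replicate 1. Ube2d2 differed by -0.29 (adjusted p = 0.32) in soleus and -0.07 (adjusted p = 0.91) in gastrocnemius. Ube2d3 differed by -0.24 (adjusted p = 0.23) and -0.13 (adjusted p = 0.65), and in soleus it passed once 1 array, HLS replicate 4, was left out (-0.34, adjusted p = 0.045). All 4 Ube2d3 probes were negative in soleus, from -0.14 to -0.39. Over the group the soleus differences ran from -0.29 to 0.44 and the gastrocnemius differences from -0.19 to 0.12.

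Ube2b, a Rad6 homologue long studied in muscle wasting, went from 5.98, 5.57, 5.62, 5.41 and 5.73 to 5.77, 5.25, 5.30, 5.29 and 5.15 in soleus. The ranges overlapped through HLS replicate 1. The difference was -0.31 (adjusted p = 0.18), and -0.41 without that replicate (adjusted p = 0.043). In gastrocnemius it was 0.12 (adjusted p = 0.75). The difference of the responses, -0.43, was not significant after adjustment (adjusted p = 0.79). Its paralogue Ube2a differed by 0.04 and 0.01 on the brightest probe, and by -0.33 (adjusted p = 0.051) and -0.34 (adjusted p = 0.06) on its other probe. Ube2w, which attaches ubiquitin to protein amino termini, showed the same kind of split: its brightest probe gave -0.24 (adjusted p = 0.18) in soleus, while probe 3 gave -0.54 and passed (adjusted p = 0.0011 over all probes).

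The E2s of other modifiers, apart from Ube2f, and the cell-cycle E2s gave no call after HLS. Ube2m, the NEDD8 E2 of most cullins, differed by 0.18 and 0.01. Ube2c, an E2 of the anaphase-promoting complex, differed by 0.20 (adjusted p = 0.47) and -0.02 (adjusted p = 0.97). The 3 large or atypical E2s, Ube2o, Ube2q and Ube2q2, differed by -0.03 to 0.29 in soleus and by -0.16 to 0.06 in gastrocnemius. Between the muscles, 0 of 31 members differed in their response at an adjusted p of 0.05 (limma, lowest 0.62), against 0.00791% of all genes, and 2 did at an unadjusted p of 0.05, against 5.75%.

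The other genes of the relay were described with the same fit. Of 10 genes for E1 enzymes 2 passed in soleus: Uba3, the catalytic subunit of the NEDD8 E1 that loads Ube2f and Ube2m, fell by 0.70 (adjusted p = 0.00032), and Mocs3, which activates the modifier Urm1, rose by 0.28 (adjusted p = 0.048). Uba3 differed by -0.35 in gastrocnemius (adjusted p = 0.084), and none of the 10 passed there. Uba1, the main ubiquitin E1, differed by 0.25 and -0.16. The modifier gene Nedd8 differed by -0.11 and 0.08.

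Among 34 E3 ligases of muscle, 5 passed in soleus (4 higher, 1 lower) and 2 in gastrocnemius (both higher). Fbxo32 rose by 2.17 and 2.43 and Fbxo31 by 1.54 in soleus, whereas Ube3c, a HECT ligase, fell by 0.42 there. In gastrocnemius the other call was Ube4a, a U-box ligase, at 1.20 (adjusted p = 0.029). Of 20 RING and cullin scaffold genes 1 passed, Cul4b, which rose by 0.61 in soleus (adjusted p = 0.016). Cul5, the cullin served by Ube2f, differed by 0.05 and 0.10, and its RING partner Rnf7 by -0.16 and -0.12. Of 8 further E2 and E2-like genes, Birc6, a very large E2, rose by 0.54 in gastrocnemius (adjusted p = 0.0041) and Cdc34 differed by 0.28 (adjusted p = 0.48) in soleus.

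Between the muscles, the brightest probes of Ube2t, Ube2e2 and Ube2q2 read higher in soleus, in control and in suspended mice. Those of Ube2d1, Ube2c and Ube2l3 read higher in gastrocnemius in both. With spike-in scaling Ube2c and Ube2l3 turned direction in controls. The second probes of Ube2t and Ube2l3 did not pass, that of Ube2t with the opposite sign, and Ube2d1 and Ube2c have 1 probe each. Both Ube2e2 probes passed, as did 2 of 4 for Ube2q2. In all, soleus and gastrocnemius differed in 8 of 31 members in control mice (4 higher and 4 lower in soleus), 25.8% against 33.5% of all genes (12.7% higher and 20.9% lower), and in 13 of 31 in suspended mice (7 higher, 6 lower), 41.9% against 31% (13.4% higher and 17.6% lower). The median difference was -0.11 over the members and -0.05 over all genes in controls, and -0.07 and -0.03 in suspended mice. With quantile scaling these splits were 3 higher and 13 lower, and 6 higher and 11 lower. Of all genes 31.6% and 32.6% passed with that scaling, 3872 of 7997 and 4346 of 8249 of them higher in soleus. Values of the muscles did not overlap for 6 members in controls (21.6% of all genes) and for 10 after HLS (17.7%). The slow-fibre markers passed in 7 of 7 cases, as the muscles' labels say. Their mean level was 7.63 to 8.03 in soleus control and 4.76 to 5.80 in gastrocnemius control. Of 8 fast-fibre markers 7 passed in controls, 5 lower and 2 higher in soleus, and their mean was 6.07 to 7.54 against 8.09 to 8.41. Adipocyte markers were also higher in soleus: 4 of 4 passed in controls and 4 of 4 after HLS, with a mean level of 1.63 to 3.40 in soleus control against 0.08 to 0.57 in gastrocnemius control, and of 0.34 to 2.90 against -0.32 to 0.56 in suspended mice. Of 5 endothelial markers 3 passed in controls and 2 after HLS, all higher in soleus. The part of these markers in the E2 differences was not tested. No slide held both muscles, so muscle and slide cannot be told apart in any of these differences. All control gastrocnemius arrays were scanned on day 1 and all control soleus arrays on day 2, so no scan day holds both. With scan day in the fit, days 1 and 2 were linked only through gastrocnemius HLS replicate 1. In that fit 1 of the 8 control calls remained (Ube2g2, 1.16, adjusted p = 0.0095), against 5.43% of all genes. Ube2t gave 1.02 (adjusted p = 0.088) and Ube2d1 -1.27 (adjusted p = 0.12). Each of these values rests on that 1 array for the link. It read 4.21 for Ube2g2, where the other gastrocnemius HLS arrays read 3.49 to 3.98. The same animals gave both muscles.

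**Figure D3:**
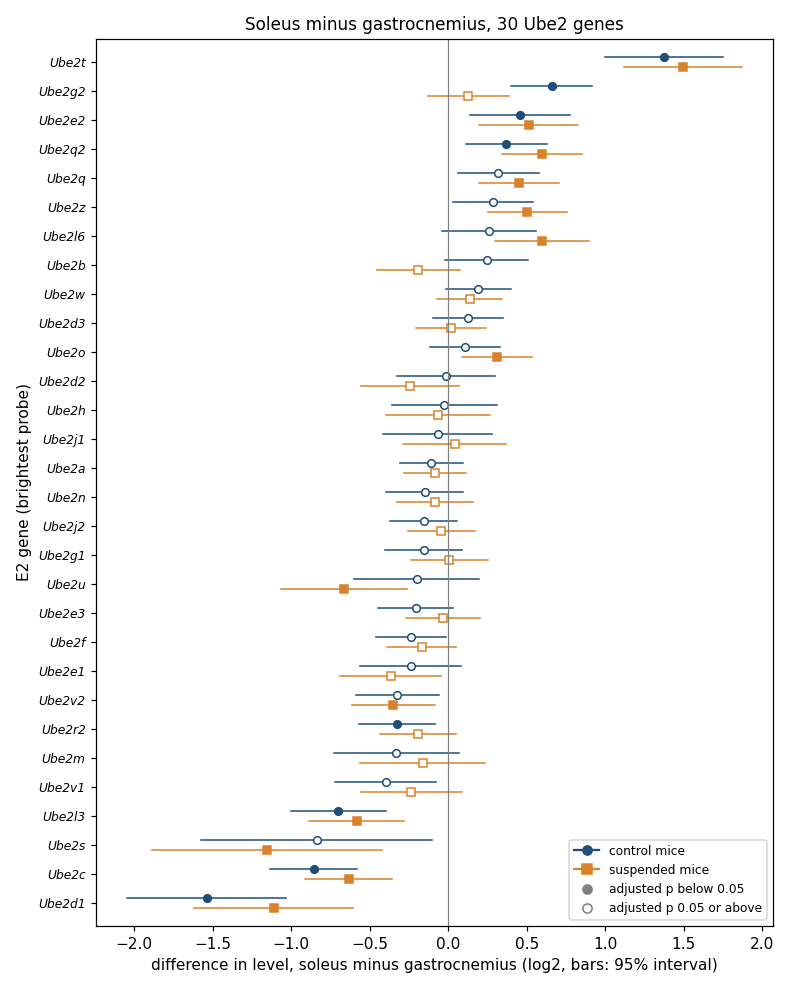
Difference in level between soleus and gastrocnemius (log2) for 30 Ube2 genes, in control mice (circles) and suspended mice (squares), with 95% intervals from limma; filled symbols passed an adjusted p of 0.05. On the brightest probes drawn, Ube2t lies far to the right and Ube2d1, Ube2c and Ube2l3 to the left in both sets of mice. With spike-in scaling Ube2c and Ube2l3 turn in controls, and the second probes of Ube2t and Ube2l3 did not pass. Ube2g2 is filled in control mice alone.

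Ube2t, the E2 that works with the Fanconi anaemia ligase in DNA crosslink repair, had the largest difference in favour of soleus. Its level was 2.04, 1.78, 1.67, 1.95 and 1.59 in soleus controls and 0.07, 0.15, 0.62, 0.47 and 0.84 in gastrocnemius controls. In suspended mice it was 0.87, 1.62, 1.84, 1.91 and 1.85 in soleus and -0.16, 0.13, 0.10, 0.33 and 0.20 in gastrocnemius. The muscles were separate in both conditions, with soleus HLS replicate 1 closest to gastrocnemius. The difference was 1.37 ± 0.18 in controls (2.59-fold, adjusted p = 1.8e-05) and 1.49 ± 0.18 after HLS (2.82-fold, adjusted p = 1.2e-05), and it was 1.68 after HLS without that replicate and 1.25 within scan day 2. A second Ube2t probe did not show it, at -0.25 in controls (adjusted p = 0.18) and -0.21 after HLS (adjusted p = 0.26), so the result rests on 1 probe.

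Ube2d1 was the member with the largest difference in favour of gastrocnemius in controls, and after HLS Ube2s had a larger one. Its gastrocnemius levels were 0.29, 0.32, 0.70, 0.15 and -0.50 in controls and 0.42, 0.39, 0.03, 0.13 and 0.04 after HLS. Every soleus array was lower than every gastrocnemius array of its condition, and soleus HLS replicate 1, at -0.03, came closest to the gastrocnemius values. The difference was -1.54 ± 0.24 in controls (2.91-fold, adjusted p = 0.00011; -0.49 with spike-in scaling) and -1.11 ± 0.24 after HLS (2.16-fold, adjusted p = 0.0020). Within scan day 2 the HLS difference was -0.80. Ube2d1 has 1 probe on the array. Ube2d2 and Ube2d3, its close relatives, differed by -0.02 and 0.13 in controls and did not pass (adjusted p = 0.94 and 0.38).

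Ube2c and Ube2s, which start and extend the chains of the anaphase-promoting complex, were measured lower in soleus, Ube2s with a call in suspended mice alone; spike-in scaling turned the direction of both in controls. Ube2c stood at -2.66, -2.42, -2.50, -1.97 and -2.34 in soleus controls and at -1.65, -1.40, -1.35, -1.68 and -1.52 in gastrocnemius controls, without overlap. In suspended mice it was -2.33, -1.94, -2.29, -2.44 and -1.89 in soleus and -1.31, -1.47, -1.62, -1.70 and -1.61 in gastrocnemius, again apart. Its difference was -0.86 ± 0.13 in controls (adjusted p = 9.3e-05; 0.19 with spike-in scaling, the opposite direction) and -0.64 ± 0.13 after HLS (adjusted p = 0.0014). Ube2s varied most of all members, with a pooled SD of 0.61 against a median of 0.19: its soleus HLS arrays read 2.09, 2.20, 0.53, 1.15 and 1.68 and its gastrocnemius HLS arrays 2.68, 2.79, 2.59, 2.53 and 2.84. These did not overlap, and the difference of -1.16 ± 0.35 passed (adjusted p = 0.017) but was lost without soleus HLS replicate 3 (-0.91, adjusted p = 0.058). In controls Ube2s differed by -0.84 (adjusted p = 0.072). A second Ube2s probe gave -1.36 after HLS (adjusted p = 0.016). Over 8 markers of cycling cells 1 passed in controls and 3 after HLS, with mean levels of -1.77 to -1.04 in soleus control and -1.74 to -0.94 in gastrocnemius control. Their part in these values was not tested.

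**Figure D4:**
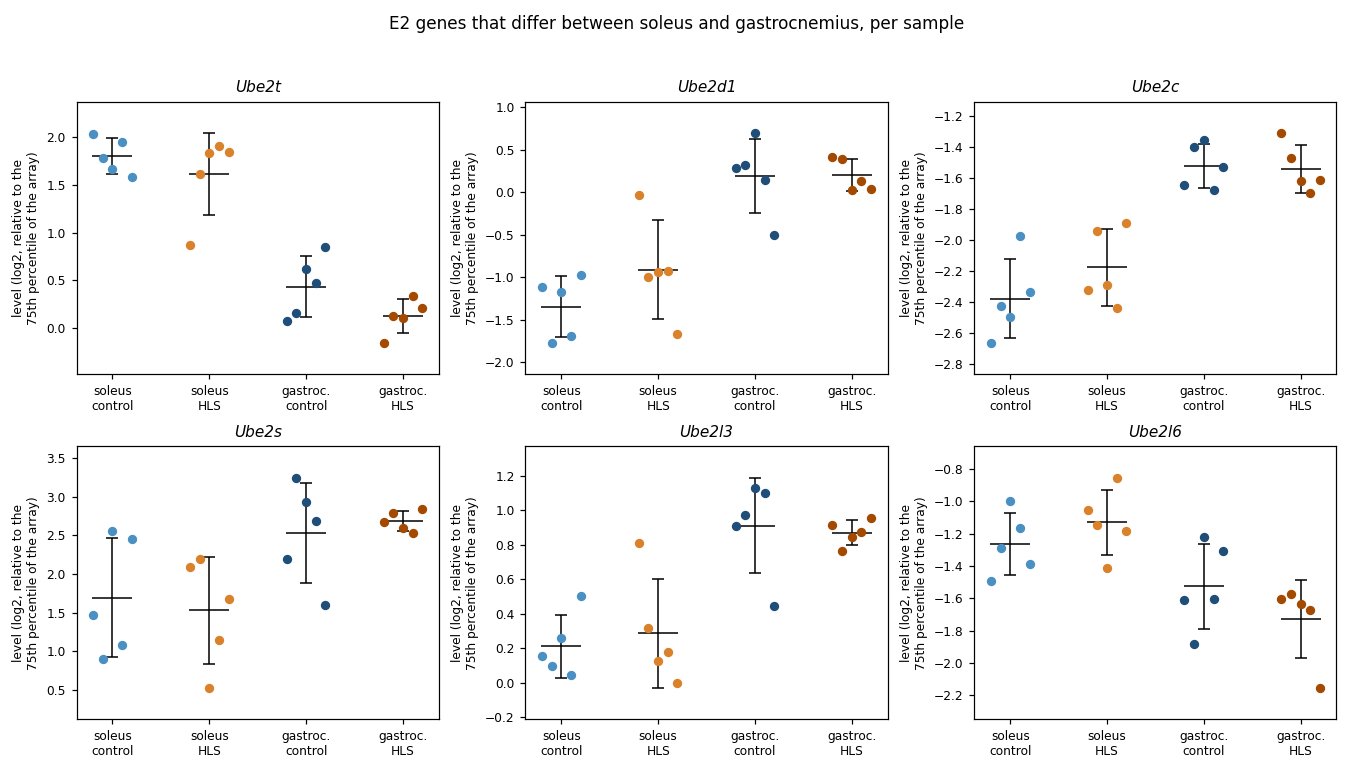
Level of Ube2t, Ube2d1, Ube2c, Ube2s, Ube2l3 and Ube2l6 on each array (log2, against the array's 75th percentile) in the 4 groups; points are arrays, and bars the mean ± SD of 5. On this scale, by brightest probe, Ube2t is higher in soleus and Ube2d1, Ube2c and Ube2l3 are lower (spike-in scaling turns Ube2c and Ube2l3 in controls). Soleus HLS replicate 1, the left-most point of its group, lies toward the gastrocnemius values for Ube2t, Ube2d1 and Ube2l3.

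Ube2l3, which charges HECT and parkin-type ligases, stood at 0.15, 0.10, 0.26, 0.04 and 0.50 in soleus controls and at 0.91, 0.98, 1.13, 1.10 and 0.45 in gastrocnemius controls, overlapping through 1 gastrocnemius array. In suspended mice it was 0.81, 0.32, 0.13, 0.18 and 0.00 in soleus and 0.92, 0.76, 0.84, 0.88 and 0.95 in gastrocnemius, and the ranges overlapped. The difference was -0.70 ± 0.15 (adjusted p = 0.0011; 0.35 with spike-in scaling, the opposite direction) and -0.58 ± 0.15 after HLS (adjusted p = 0.0050), whereas its second probe gave -0.05 (adjusted p = 0.73) and -0.23 (adjusted p = 0.096). Ube2g2 was higher in soleus controls by 0.66 ± 0.12 on its brightest probe (adjusted p = 0.00051) and differed by 0.13 after HLS (adjusted p = 0.46). Of its 3 probes 1 passed in controls, and the 3 ran from 0.02 to 0.66. Ube2e2, a general E2, stood at 1.53, 1.18, 1.28, 1.77 and 1.54 in soleus controls and at 0.85, 0.99, 0.95, 0.99 and 1.22 in gastrocnemius controls. In suspended mice it was 0.86, 1.65, 1.54, 1.90 and 1.42 in soleus and 0.78, 0.90, 1.12, 1.07 and 0.93 in gastrocnemius. The ranges overlapped in both conditions, through 1 low soleus array each time. Ube2e2 was higher in soleus on both of its probes: the brightest gave 0.46 (adjusted p = 0.026) and 0.51 (adjusted p = 0.015), and the other 0.60 (adjusted p = 0.0042) and 0.53 (adjusted p = 0.011). The brightest probe's control call was lost without soleus control 1, 4 or 5 or gastrocnemius control 1, at 0.38 to 0.44, and its HLS call without soleus HLS replicate 4 (0.41, adjusted p = 0.053).

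The atypical E2 Ube2q2 was higher in soleus by 0.37 in controls (adjusted p = 0.025) and by 0.60 after HLS (adjusted p = 0.0012) on its brightest probe. Of its 4 probes 2 passed in each condition, both higher in soleus. The 4 ran from -0.07 to 0.37 in controls and from -0.13 to 0.60 after HLS. The levels that follow are those of the brightest probe. Soleus controls stood at 1.68, 1.71, 1.45, 1.24 and 1.48 and gastrocnemius controls at 0.90, 1.18, 1.21, 1.22 and 1.20. Soleus HLS stood at 1.51, 1.64, 1.85, 2.11 and 1.92 and gastrocnemius HLS at 1.41, 1.12, 1.07, 1.09 and 1.35, and neither pair of ranges overlapped. The control call was lost without soleus control 1 or 2 or gastrocnemius control 1 (0.31 to 0.33, adjusted p up to 0.076). Ube2r2 stood at 3.03, 2.80, 3.06, 2.71 and 3.32 in soleus controls and at 3.25, 3.25, 3.39, 3.50 and 3.15 in gastrocnemius controls, overlapping through soleus control 5. It was lower in soleus controls by a difference of -0.33 (adjusted p = 0.035; 0.73 with spike-in scaling, the opposite direction), and this was lost without soleus control 2 or 4 or gastrocnemius control 3 or 4 (-0.26 to -0.31, adjusted p up to 0.10). All 4 Ube2r2 probes were negative in controls, from -0.19 to -0.44, and 3 of them passed.

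In suspended mice alone, the brightest probes of 7 further members passed; whether the muscle difference changed with HLS is the difference of responses given above, where 0 members passed. Ube2l6, the E2 of ISG15, was higher in soleus by 0.60 (adjusted p = 0.0038), with soleus at -1.06, -1.15, -1.41, -0.86 and -1.18 and gastrocnemius at -1.61, -1.57, -1.63, -1.67 and -2.15. The ranges were separate. Of 8 interferon-response markers 4 passed in that comparison, 1 higher and 3 lower, and their part was not tested. Ube2u was lower in soleus (-0.67, adjusted p = 0.013), at -2.83, -3.14, -3.54, -2.54 and -2.57 against -2.34, -1.84, -2.52, -2.21 and -2.37. Ube2u and Ube2l6 have 1 probe each, and Ube2u had the lowest mean level of all members (-2.60). Ube2q was higher by 0.45 (adjusted p = 0.0088), at 0.18, 0.49, 0.59, 0.88 and 0.46 in soleus against -0.03 to 0.18 in gastrocnemius. A second Ube2q probe gave 0.15 and did not pass. With scan day in the fit 6 of the 13 calls after HLS remained, against 22.1% of all genes.

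Probes of 1 gene went opposite ways for several members. Ube2z, an E2 of ubiquitin and FAT10 served by the E1 Uba6, stood after HLS at -0.15, 0.16, 0.01, 0.30 and 0.03 in soleus and at -0.72, -0.46, -0.34, -0.34 and -0.32 in gastrocnemius on its brightest probe, without overlap. It gave 0.50 on its brightest probe after HLS (adjusted p = 0.0041) and -0.90 on its second (adjusted p = 8.8e-05), and their mean turned the direction (-0.20, adjusted p = 0.17). Ube2o, which combines E2 and E3 activity, stood after HLS at 3.18, 3.24, 3.21, 3.27 and 3.31 in soleus and at 3.03, 2.54, 2.91, 3.01 and 3.16 in gastrocnemius, also without overlap. Its probes gave 0.31 (adjusted p = 0.032) and -0.63 (adjusted p = 0.00038), and the mean was -0.16 (adjusted p = 0.15). Ube2v2 stood after HLS at 0.40, -0.03, -0.13, -0.25 and -0.22 in soleus, where replicate 1 reached the gastrocnemius range, and at 0.40, 0.34, 0.25, 0.21 and 0.32 in gastrocnemius. It gave -0.35 after HLS on its brightest probe (adjusted p = 0.041), -0.18 on probe 2 and 0.27 on probe 3 (adjusted p = 0.052). In controls its probes 2 and 3 both passed, at -0.41 and 0.28. The Ube2o call was lost without soleus HLS 2, 3, 4 or 5 or gastrocnemius HLS 2 or 3 (0.21 to 0.32), and the Ube2v2 call without any of those or gastrocnemius HLS 1 or 5 (-0.30 to -0.36).

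**Figure D5:**
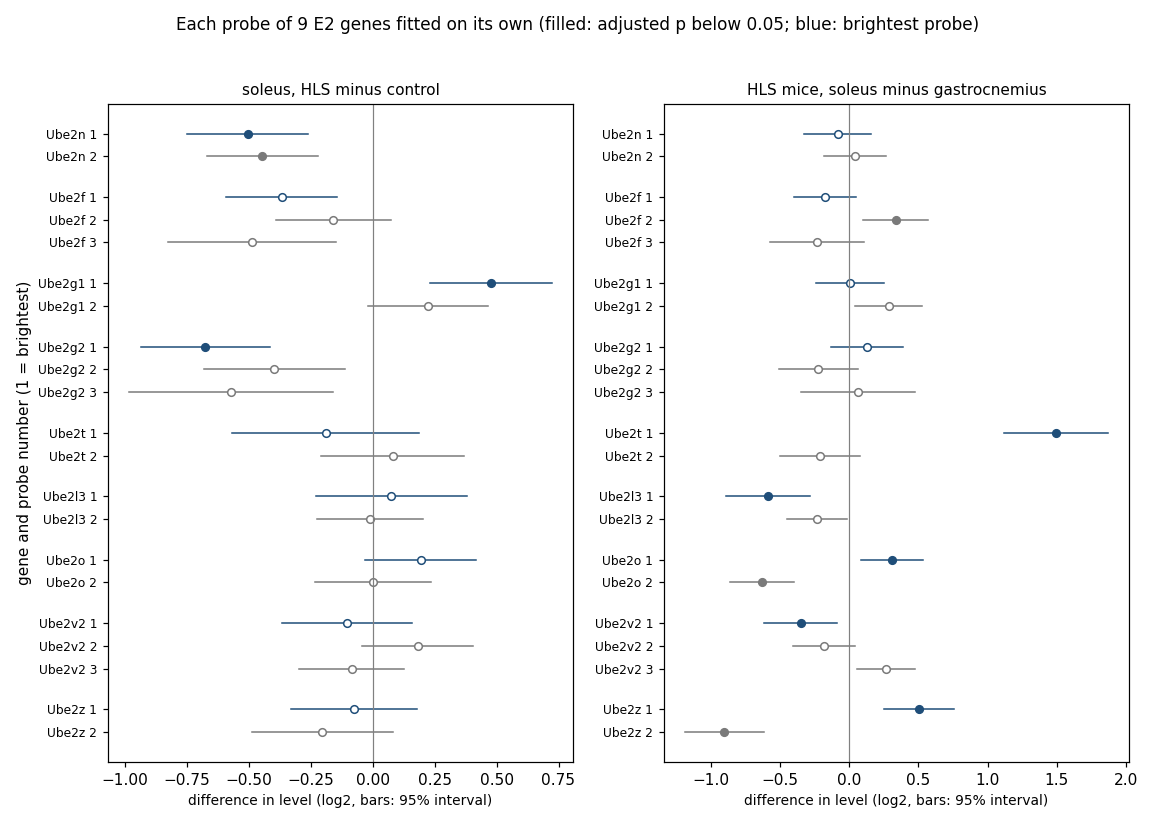
Difference in level for each kept probe of 9 Ube2 genes fitted on its own (log2, 95% intervals; filled symbols passed an adjusted p of 0.05), for HLS against control in soleus (left) and soleus against gastrocnemius in suspended mice (right). Both Ube2n probes lie left of 0 in the left panel, while in the right panel the probes of Ube2z and Ube2o lie on opposite sides of 0.

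Fitted probe by probe, 5 of 78 kept Ube2 probes passed for HLS in soleus (5.42% of all probes), 3 in gastrocnemius (2.83%), 24 between muscles in controls (33.1%) and 25 after HLS (30.6%). At the level of genes, the median pooled SD within groups was 0.194 for the 31 members and 0.241 for all genes tested, a difference that was not tested. Ube2a had the lowest, at 0.124.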

How the data were processed

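Total RNA (600 ng per labelling, with spike-in RNA, Cy3) was hybridised to 20 one-colour Agilent arrays, per the labels' protocols. Per the file headers, the authors processed the scans with Agilent Feature Extraction, version 9.1.3.1, and deposited linear spot intensity that is not scaled between arrays. From the 45018 spots per array (43379 not controls), spots marked as uneven or as outliers were left out, the processed intensity was taken to log2 minus each array's 75th percentile, and spots of 1 probe (41174 probes) were averaged. Genes were kept whose brightest probe stood well above background on 4 or more of 5 arrays in some group. The 75th percentile of intensity ranged from 385.1 to 735 between arrays; precision is limited by how many arrays each group has.

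A means model of the 4 groups was fitted over all 20 arrays in R 4.3.3 with lmFit and eBayes of limma 3.58.1, with two-sided tests and Benjamini-Hochberg adjustment over 25289 genes. The labels call the replicates independent biological replicates. Equal replicate numbers were taken to link both muscles of a mouse, and the deviations of these pairs correlated by -0.34 to 0.17. Compared were HLS and control within a muscle, the 2 muscles' responses, and soleus and gastrocnemius within a condition. The authors' deposited series table, also linear intensity, served as an alternative, as did quantile scaling, normexp background correction, no filter, the mean of a gene's probes, fits of 2 groups, and blocks of slide, scan day and animal. On simulated data 20 of 66 genes shifted by 0.5, 57 of 67 shifted by 1 and 66 of 67 shifted by 2 (log2) were recovered among 25289. No other gene was shifted there, and no batch was simulated. The members and lists were chosen with earlier results of these data known. Values were given for every member that passed, on each array for at least the 10 largest differences where more passed, and for 9 chosen members whatever their values, and pathway genes by lowest p. Counts cover all 31 members, of which 1 is not reported by name here. Figures were drawn with matplotlib 3.10.9.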

Additional observations from a re-analysis of the deposited data

Results flagged for a closer look

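Each of the 124 sets of 5 arrays (31 members in 4 groups) was examined for a sample that stood far from the other 4, and 9 sets held one; chance gives about 1 in 20. In soleus HLS, replicate 1 was high for Ube2b (5.77, others 5.15 to 5.30) and for Ube2g2 (4.25, others 3.80 to 3.90), and low for Ube2t (0.87, others 1.62 to 1.91); this is also the array with the lowest slow-fibre mean. Replicate 5 of soleus HLS was low for Ube2e3 (1.20, others 1.64 to 1.80), and soleus control replicate 4 was high for Ube2w (0.55, others 0.08 to 0.18). In gastrocnemius HLS, replicate 1 was high for Ube2v1 (3.36, others 3.05 to 3.09) and replicate 5 was low for Ube2l6 (-2.15, others -1.67 to -1.57). In gastrocnemius control, replicate 4 was high for Ube2b (5.71, others 5.31 to 5.39) and replicate 1 was low for Ube2q2 (0.90, others 1.18 to 1.22).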

How the results depend on the processing

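Counts of members called were within 1.5 times the values above under normexp background, the authors' deposited table, no filter, the mean of a gene's probes and the replicate block, with the exceptions given here. Quantile scaling raised the count in controls between muscles to 16 (31.6% of all genes), of which 6 were among the 8. Fitting only the 2 groups compared left 1 in soleus, Ube2g2 (2.79% of all genes). With slide as a fixed block 0 were called after HLS in soleus and 0 in gastrocnemius (0.0909% and 0.0395% of all genes). That block could not be fitted between muscles. With scan day as a fixed block the counts were 2 in soleus, 0 in gastrocnemius, 1 between muscles in controls and 6 after HLS. The shares of all genes were 3.07%, 0.0633%, 5.43% and 22.1%. Leaving out 1 array at a time gave 3 to 5 in soleus, 1 to 2 in gastrocnemius, 0 for their difference, 6 to 13 between muscles in controls (13 without soleus control replicate 3 or 5) and 10 to 14 after HLS. In these fits 4.21% to 6.12% of all genes passed in soleus and 1.76% to 2.6% in gastrocnemius. For the difference of responses it was 0.00395% to 0.0514%. Between muscles it was 28% to 34.3% in controls and 25% to 32.3% after HLS. The replicate block by number or animal gave 3, 2, 0, 8 and 11 in the 5 comparisons, of which 3, 2, 0, 6 and 11 were among the calls without it. With it 5.92%, 3.25%, 0%, 30.8% and 28.4% of all genes passed. For HLS against control the block joined different mice of the same number, and it ended the soleus call of Ube2f (adjusted p = 0.060). The pairs' deviations had a median correlation of 0.04 between muscles and -0.02 between control and HLS.

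Scaling to the E1A spike-ins, chosen after seeing the data, called 7 in soleus (all lower), 30 in gastrocnemius (all higher), 30 for their difference and 27 between muscles in controls (all higher in soleus), alongside 13.4%, 93%, 92.1% and 89.3% of all genes. It reversed, in gastrocnemius, Ube2f to 0.34, Ube2n to 0.21, Ube2c to 0.76, Ube2d2 to 0.71, Ube2d3 to 0.65 and Ube2v1 to 0.71, and between muscles in controls Ube2c to 0.19, Ube2l3 to 0.35 and Ube2r2 to 0.73. The mean of all kept probes reversed Ube2o to -0.16 and Ube2z to -0.20 between muscles after HLS. The cause was not tested. With 5 arrays per group, differences of 0.5 (log2) were often missed in the simulation, which shifted far fewer genes than were called in soleus. How often they are missed in these data was not tested.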
